A study of Homo sapiens with 4 samples.

Results

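The BCL2 family members described here are 10 genes taken by symbol from the 4 deposited count tables, out of 52402 different symbols. They are 3 anti-apoptotic genes (BCL2, BCL2L1 and MCL1), 2 effectors (BAX and BAK1) and 5 BH3-only genes (BCL2L11, BBC3, PMAIP1, BID and BAD). All 10 were found, each in a single row, and all 10 reached 1 CPM (a library's counts scaled to the same total) in at least 1 library of each pair. The libraries came from human ovarian cancer cultures labelled SKOV3 or OVCAR3, each as a mock control and as a CRISPR-Cas9 knockout (KO) of the envelope gene of the endogenous retrovirus HERV-K119. All 4 cultures, the mock ones included, received hygromycin at 100 µg/mL for 2 days, starting about 18 hours after transfection. There was 1 library per group, and the labels do not say whether a knockout culture was 1 clone or a pool. The HERV-K119 envelope transcript itself was not analysed here.

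The BCL2 family controls the mitochondrial pathway of apoptosis. The effectors BAX and BAK1 open the outer mitochondrial membrane and release cytochrome c, and the anti-apoptotic proteins bind and restrain them. The BH3-only proteins sense stress, and occupy the anti-apoptotic proteins or engage the effectors. In epithelial cancers BCL2L1 (the gene of BCL-XL) and MCL1 are the guardians that tumour cells most often depend on. BBC3 is also known as PUMA and PMAIP1 as NOXA, and both are induced by stress at the level of transcription. Part of this control acts on proteins, through cleavage of BID, phosphorylation of BAD and rapid turnover of MCL1, none of which transcript counts measure.

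Library totals ranged from 15145483 to 22057693 counts, so that a count of 0 allowed at most 0.198 CPM. The OVCAR3 KO library stood apart: mitochondrially encoded genes took 21.9% of its counts, against 5.16% to 5.93% in the other 3, and its 10 most abundant genes took 20.9%, against 6.15% to 6.89%. The nuclear-retained RNA NEAT1 was at 1612 CPM in it, against 142 to 446 CPM elsewhere. All 7 epithelial markers passed 1 CPM in every library, with summed levels of 5676, 5275, 7827 and 2140 CPM in SKOV3 mock, SKOV3 KO, OVCAR3 mock and OVCAR3 KO. The immune markers PTPRC and CD3E and the fibroblast markers COL3A1 and LUM were at 0 in all 4 libraries. Summed levels were 10.1 to 36.2 CPM for 6 immune markers, most of it CD68, 17.7 to 35.2 CPM for 6 fibroblast markers, most of it COL1A1, and 0.576 to 3.33 CPM for 5 endothelial markers. The 6 ovarian markers summed to 25.2 to 52.6 CPM, most of it MSLN at 20.1 to 41.0 CPM, with PAX8 at 3.33 to 8.83 CPM and WT1 and SOX17 at 0 in all 4 libraries. The line names are used below as the labels give them, although CDKN2A, a gene known to be deleted in SKOV3, had 90.6 CPM in the mock and 91.2 CPM in the KO library carrying that label. In the OVCAR3-labelled mock and KO, WT1 was at 0 and MUC16 (the CA125 antigen) at 2.74 and 6.18 CPM, although OVCAR3 is known to express both.

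Since a group is a single library, the ratios within a line describe these libraries and carry no p-value. Each log2 ratio is KO over mock, computed with a prior count of 2. The bracketed 95% interval after it is exact and covers counting error only. The size rule calls a gene when its ratio reaches 1 in either direction, that is 2-fold, with at least 1 CPM in the pair. In bulk RNA, fewer cells of a kind and less RNA per cell cannot be told apart.

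Levels between genes were compared per kilobase of the longest transcript. PMAIP1 was the most abundant member in both SKOV3 libraries, at 124 CPM per kb in the mock and 120 CPM per kb in the KO. BCL2L1 followed at 75.4 and 63.3 CPM per kb, and MCL1 at 59.9 and 54.5 CPM per kb. In the OVCAR3 mock BCL2L1 led at 103 CPM per kb, while PMAIP1 at 55.1 and MCL1 at 54.6 CPM per kb overlapped within counting error. The same 3 genes led in the OVCAR3 KO, at 53.9, 43.4 and 38.2 CPM per kb. BCL2 was the lowest member in all 4 libraries, at 0.383 to 1.00 CPM per kb, and BCL2L11 was the next lowest, at 2.57 to 4.72 CPM per kb. The middle of the order held BAD, BAX, BBC3, BAK1 and BID. In it, BAD and BAX overlapped in both SKOV3 libraries, BAK1 and BID overlapped in both mocks, and BBC3 and BAD overlapped in the OVCAR3 mock. BAD and BID overlapped in the OVCAR3 KO, at 24.6 and 23.4 CPM per kb. BBC3 stood next after those 3 in the OVCAR3 mock, at 28.5 CPM per kb, and just above BCL2L11 in the OVCAR3 KO, at 5.87 CPM per kb, where its interval overlapped that of BAK1 at 6.01.

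**Figure D1:**
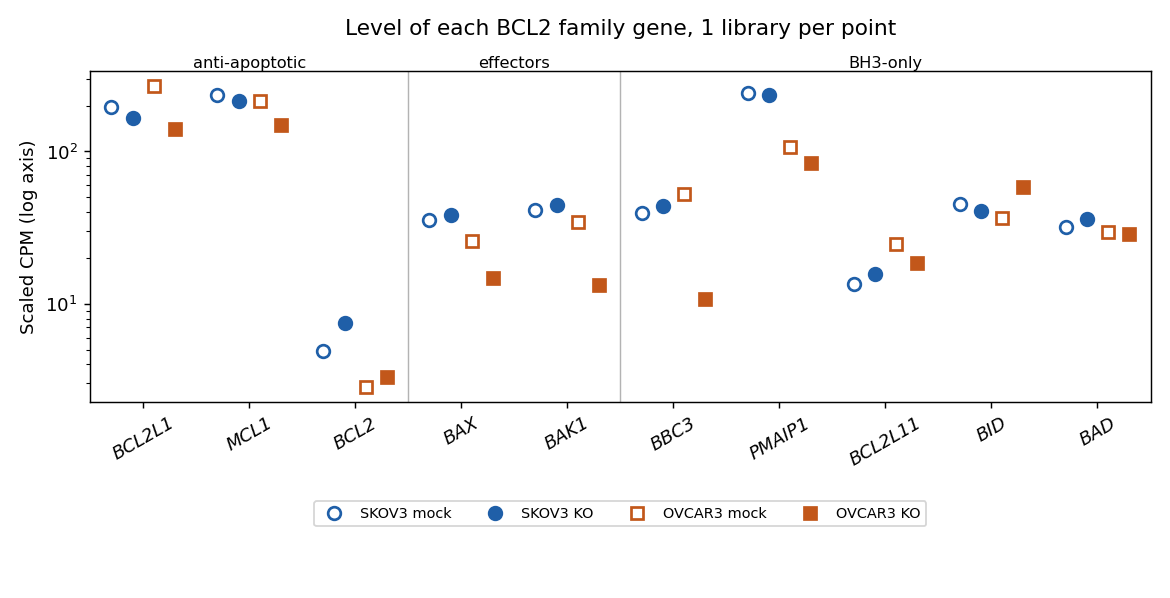
Scaled CPM (log axis) of the 10 genes, ordered by role, in the 4 libraries; each point is 1 library, open for mock and filled for KO, circles for SKOV3 and squares for OVCAR3. BBC3 and BAK1 in the OVCAR3 KO library, at 10.8 and 13.3 CPM, lie below the other 3 libraries. So do BCL2L1, MCL1, PMAIP1, BAX and BAD, at 141, 150, 84.6, 14.9 and 28.5 CPM, with BAD within counting error of its mock. BID in the OVCAR3 KO library, at 58.4 CPM, lies above the other 3 libraries.

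Among the anti-apoptotic genes, BCL2L1, which restrains both effectors, lies on chromosome 20 (GRCh38.p14, 31664452 to 31723963, minus strand). Its counts were 4445 in the SKOV3 mock, 2604 in the SKOV3 KO, 4407 in the OVCAR3 mock and 2073 in the OVCAR3 KO, or 197, 165, 268 and 141 CPM. The KO library was the lower one in both pairs. The log2 ratio was -0.25 [-0.32, -0.18] in SKOV3 and -0.93 [-1.01, -0.86] in OVCAR3, where the KO held 52.5% of the mock level. Of the exon bases of BCL2L1, 43.0% are shared with ABALON, a transcript annotated on the opposite strand, whose own ratios were -0.38 and -0.91. The strand setting of the counting is not given in the sources used here, so reads of this pair cannot be told apart.

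MCL1 (chromosome 1, 150574558 to 150579610, minus strand) is a short-lived guardian that binds BAK1 and some of the BH3-only proteins. It was at 235, 214, 215 and 150 CPM in the order SKOV3 mock, SKOV3 KO, OVCAR3 mock and OVCAR3 KO. It too was lower in the KO library of both pairs. The ratio was -0.14 [-0.20, -0.07] in SKOV3 and -0.52 [-0.59, -0.44] in OVCAR3.

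BCL2, the founding member and the target of venetoclax (chromosome 18, 63123346 to 63320090, minus strand), was sparse, with 110, 118, 47 and 49 counts in the same order, or 4.87, 7.48, 2.86 and 3.33 CPM. It was the one anti-apoptotic gene with a higher level in the KO of both pairs. Its SKOV3 ratio of 0.61 [0.23, 1.01] had the largest absolute value of the 10 members in that line. The OVCAR3 ratio of 0.21 [-0.39, 0.83] could not be told from 0 at this depth.

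Both effectors were lower in the OVCAR3 KO than in its mock, and neither differed from its mock beyond counting error in SKOV3. BAK1, which sits in the outer mitochondrial membrane (chromosome 6, 33572552 to 33580276, minus strand), had 934, 703, 568 and 196 counts in the order above, or 41.4, 44.6, 34.6 and 13.3 CPM. The OVCAR3 KO library held 38.7% of its mock level, and the other 3 libraries lay within 34.6 to 44.6 CPM. The ratio was -1.37 [-1.62, -1.14] in OVCAR3, a 2.59-fold lower level, and 0.11 [-0.04, 0.25] in SKOV3.

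BAX, the effector that moves from the cytosol to mitochondria (chromosome 19, 48954875 to 48961798, plus strand), had 797, 606, 425 and 219 counts, or 35.3, 38.4, 25.9 and 14.9 CPM. Both OVCAR3 libraries were below both SKOV3 libraries, with the KO the lower of the OVCAR3 pair. The ratio was -0.79 [-1.04, -0.56] in OVCAR3, short of 2-fold, and 0.12 [-0.03, 0.28] in SKOV3.

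The BH3-only genes differed among themselves. BBC3, which binds every anti-apoptotic member (chromosome 19, 47220824 to 47232860, minus strand), had 894 counts in the SKOV3 mock, 694 in the SKOV3 KO, 860 in the OVCAR3 mock and 159 in the OVCAR3 KO. These were 39.6, 44.0, 52.3 and 10.8 CPM, so the OVCAR3 mock was the highest of the 4 libraries and the OVCAR3 KO the lowest. The OVCAR3 ratio was -2.27 [-2.53, -2.03], a 4.81-fold lower level, and 1.63% of the protein-coding genes measured in that pair had a lower ratio. In SKOV3 the ratio was 0.15 [0.01, 0.30].

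BID, which links death receptors to mitochondria once caspase-8 has cleaved it (chromosome 22, 17734138 to 17774665, minus strand), had 1013, 645, 600 and 860 counts, or 44.9, 40.9, 36.5 and 58.4 CPM. Here the OVCAR3 KO was the highest library. BID was the only member with a higher level in the OVCAR3 KO beyond counting error, at a ratio of 0.67 [0.52, 0.83], against -0.13 [-0.28, 0.01] in SKOV3.

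PMAIP1, which binds MCL1 and promotes its turnover (chromosome 18, 59899996 to 59904305, plus strand), had 5461, 3686, 1763 and 1247 counts, or 242, 234, 107 and 84.6 CPM. The line label separated these libraries more than the knockout did. The ratios were -0.05 [-0.11, 0.01] in SKOV3 and -0.34 [-0.45, -0.24] in OVCAR3.

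BCL2L11, the gene of BIM, which engages both effectors and guardians (chromosome 2, 111120914 to 111168445, plus strand), was at 13.4, 15.7, 24.7 and 18.6 CPM. Its ratio was 0.22 [-0.03, 0.47] in SKOV3 and -0.41 [-0.64, -0.19] in OVCAR3. BAD, whose binding to BCL2L1 is switched off by survival kinases (chromosome 11, 64269828 to 64284704, minus strand), was at 32.1, 36.0, 29.5 and 28.5 CPM. BAD was the member nearest to no difference in OVCAR3, at -0.05 [-0.24, 0.14], and its SKOV3 ratio was 0.16 [0.00, 0.33]. On the opposite strand GPR137 shares 23.7% of the exon bases of BAD, and its own ratios were 0.23 and -1.23. MIR4435-2HG shares 10.9% of those of BCL2L11, with ratios of 0.15 and -0.10.

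Read against all genes, the family was close to even in SKOV3. None of the 10 members passed the 2-fold rule in that line, in either direction. Of the measured protein-coding genes 0.6% passed it as higher and 0.322% as lower, and of all measured genes 0.799% and 0.739%. The members' median ratio was 0.12, with 6 above 0 and 4 below, and the median over protein-coding genes was 0.01. Of the measured protein-coding genes 5894 were above 0 and 5600 below. Counting intervals excluded 0 in 37.4% of measured protein-coding genes, in either direction. Those of 5 members did, those of BCL2, BBC3 and BAD above it and those of BCL2L1 and MCL1 below it.

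In OVCAR3, 2 of 10 members passed the rule as lower, BBC3 and BAK1, and 0 passed it as higher. A share of 18.3% of the measured protein-coding genes passed it as lower and 13.0% as higher, and 15.4% and 22.5% of all measured genes, so the members' count of 2 lay near the background. With DESeq2 size factors in place of TMM scaling the count was 4, with BCL2L1 at -1.14 and BAX at -1.002 added, while 23.7% of protein-coding genes passed as lower and their median moved by -0.21. The members' median was -0.46, with 8 below 0 and 2 above, against -0.02 over protein-coding genes and 0.16 over all measured genes. Below 0 were 6185 of the 12166 measured protein-coding genes. Counting intervals excluded 0 in 80.1% of measured protein-coding genes and in 8 of the 10 members, all but BCL2 and BAD, which is the same share as the background.

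**Figure D2:**
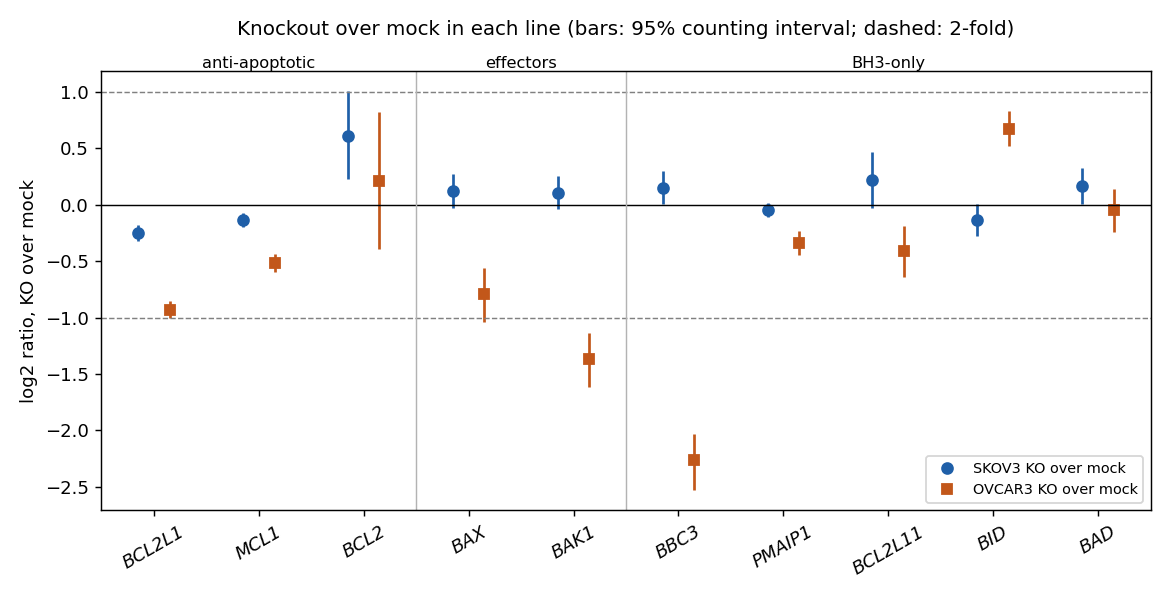
log2 ratio of KO over mock (y axis) for the 10 genes by role, with SKOV3 as circles and OVCAR3 as squares; vertical bars are exact 95% counting intervals and dashed lines mark 2-fold. All SKOV3 points lie between -0.25 and 0.61, while BBC3 at -2.27 and BAK1 at -1.37 lie beyond 2-fold in OVCAR3.

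The OVCAR3 ratios moved with the GC content of transcripts. Across protein-coding genes the median OVCAR3 ratio went from 0.54 in the lowest of 10 equal groups by GC content to -0.69 in the highest. In SKOV3 the same medians were -0.01 and 0.08. The members span most of this range: PMAIP1 had a GC content of 37.2%, MCL1, BCL2 and BCL2L11 of 45.1% to 45.7%, BID of 49.7%, BCL2L1, BAK1 and BAX of 56.9% to 58.9%, BAD of 66.3% and BBC3 of 69.7%. With a smooth trend on GC content and length removed, the OVCAR3 ratio of BBC3 was -1.94 and it stayed past 2-fold. That of BAK1 became -0.97 and that of BCL2L1 -0.55, while MCL1 at -0.59, BAX at -0.59 and BID at 0.74 stayed short of 2-fold. PMAIP1, the member poorest in GC, went the other way, to -1.13. In SKOV3 the same step took BBC3 from 0.15 to 0.005 and BAD from 0.16 to 0.08. The OVCAR3 members past the rule were then BBC3 and PMAIP1, in place of BBC3 and BAK1. The part of GC content, of length, of the mitochondrial share, of NEAT1 and of the lower epithelial sum in these ratios was not tested.

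**Figure D3:**
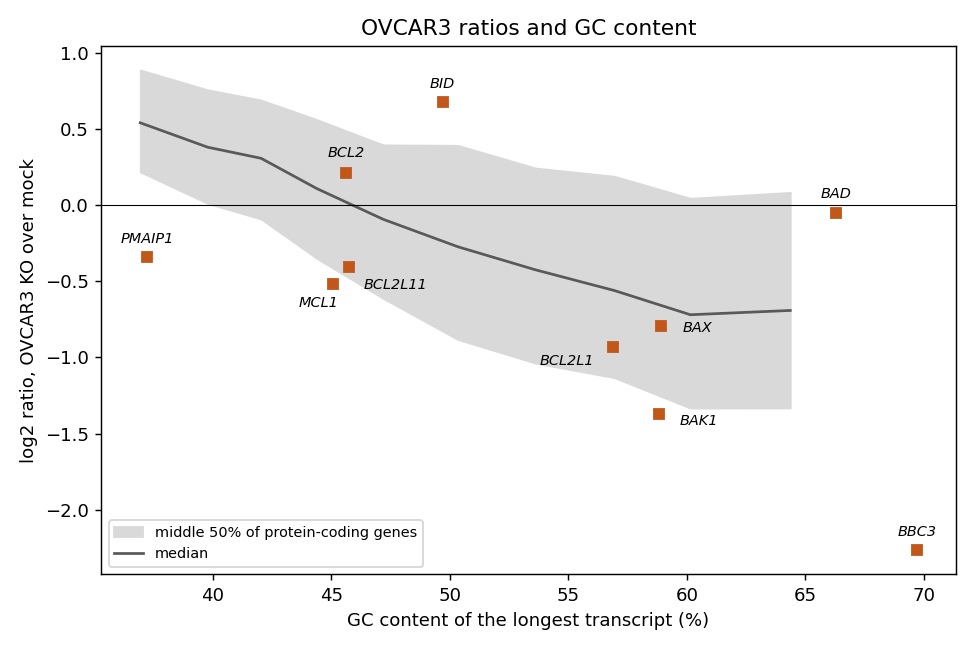
OVCAR3 log2 ratio of KO over mock (y axis) against GC content of the longest transcript in percent (x axis); squares are the 10 genes, the line is the median of protein-coding genes in 10 groups of equal size by GC content and the band holds their middle 50%. The median goes from 0.54 to -0.69. PMAIP1 at -0.34, MCL1 at -0.52 and BAK1 at -1.37 lie below the band, and BID at 0.67 lies above it. BBC3 at -2.27, right of the last group, lies below that group's lower edge of -1.33.

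The sequence before the transcription start was examined for all members. RefSeq windows of GRCh38.p14, from 250 bases before to 50 after a start, were found for 9 of the 10 members, with 15 windows in all, and MCL1 had none. The motifs were searched on both strands. The CRE (TGACGTCA) is in 1.85% of all 35116 windows, the C/EBP-ATF response element (TGATGNAA) in 3.62%, the E2F motif (TTTNNCGC) in 6.89%, the NF-kB site in 11.3% and the E-box (CACGTG) in 7.26%. The E-box was added after the sequences had been seen. No member's window held the CRE, the C/EBP-ATF response element or the NF-kB site. One window of BCL2L1 held the E2F motif, and windows of BBC3, BAX and BID held E-boxes.

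The parts of the BBC3 and BAX windows that lie outside the RefSeq gene and outside every GENCODE 29 exon are shown as examples of E-box windows in members that were lower in the OVCAR3 KO. Each reads 5′ to 3′ on the strand of its gene. Capitals mark an E-box.
BBC3, chr19:47232861-47232917, minus strand: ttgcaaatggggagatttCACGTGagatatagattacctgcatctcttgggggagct
BAX, chr19:48954625-48954814, plus strand: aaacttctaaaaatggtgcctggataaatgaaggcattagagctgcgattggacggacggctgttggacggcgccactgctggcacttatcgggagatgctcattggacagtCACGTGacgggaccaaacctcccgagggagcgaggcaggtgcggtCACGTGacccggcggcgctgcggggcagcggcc

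The E-box of BBC3 starts 232 bases before the RefSeq start. BAX has 4 E-boxes, at 138, 93, 45 and 14 bases before its start, the first 2 of which are in the stretch shown. BID, which was higher in the OVCAR3 KO, also holds an E-box in 2 of its 5 windows, and the BAK1 window holds none. A match describes letters in these windows and says nothing of binding.

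The interval of the difference between the lines excluded 0 for 8 of 10 members, all but BCL2 and BAD, and for 73.7% of the protein-coding genes measured in both pairs. The count of members is near that background. As OVCAR3 minus SKOV3, the difference was -2.42 [-2.72, -2.14] for BBC3, -1.48 [-1.77, -1.21] for BAK1, -0.92 [-1.21, -0.64] for BAX and -0.68 [-0.78, -0.57] for BCL2L1. It was 0.81 [0.60, 1.02] for BID, the single member with the higher ratio in OVCAR3. BCL2L11, MCL1 and PMAIP1 differed by -0.63, -0.38 and -0.29. The sign was opposite in the lines for 6 members and the same for 4, namely BCL2, BCL2L1, MCL1 and PMAIP1. The share of all genes with opposite signs was not computed, so this count is not read as a trait of the family. Of those with opposite signs, only BBC3 had intervals that excluded 0 in both lines: the SKOV3 intervals of BCL2L11, BAX, BAK1 and BID held 0, and so did the OVCAR3 interval of BAD. These intervals hold counting error only, and with 1 library per group the difference between the lines was not tested over samples.

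The cell line is the only replicate of the knockout. Over all 4 libraries, edgeR's quasi-likelihood test with the line as a block and Benjamini-Hochberg adjustment called 0 of 13693 genes (0.0%) for the knockout, with 147 at an unadjusted p under 0.05. DESeq2 and limma-voom called 0 as well, with 412 and 315 at an unadjusted p under 0.05. None of the members was called, and their adjusted p in edgeR lay between 0.957 and 0.993. BBC3 had the largest estimate, a log2 difference of -1.05 (SE 0.59, edgeR adjusted p = 0.957), followed by BAK1 at -0.63 (SE 0.47) and BCL2L1 at -0.59 (SE 0.44). BBC3 was lower in 1 of 2 lines and BCL2L1 in both. Without the OVCAR3 KO library the knockout value is the SKOV3 ratio, which is 0.15 for BBC3, 0.11 for BAK1 and -0.25 for BCL2L1, with no test.

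Levels of BCL2 family genes were also compared between the mock libraries alone. As log2 of OVCAR3 over SKOV3 mock, PMAIP1 was at -1.17 [-1.25, -1.09], a 2.25-fold higher level in SKOV3, and BCL2L11 was at 0.88 [0.66, 1.10]. BCL2L1 at 0.45 [0.39, 0.51] and BBC3 at 0.40 [0.27, 0.54] were also higher in the OVCAR3 mock. The other 7 members were higher in the SKOV3 mock, among them BCL2 at -0.74 [-1.29, -0.26] and BAX at -0.45 [-0.62, -0.28]. The interval of BAD was the one of 10 that held 0, and 73.8% of measured protein-coding genes had intervals without 0 between the mocks. In the same fit over 4 libraries, edgeR called 5 of 13693 genes (0.0365%) for the line and none of the members. PMAIP1 had the lowest p of the members, with a log2 difference of -1.32 (SE 0.43), a p of 0.0123 in edgeR and an adjusted p of 0.3, lower in OVCAR3 in both the mock and the KO comparison.

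The summed level of each role puts these genes on one scale. The anti-apoptotic genes summed to 136 CPM per kb in the SKOV3 mock and 119 in the SKOV3 KO, and to 158 in the OVCAR3 mock and 92.5 in the OVCAR3 KO. The effectors summed to 44.7 and 48.5 CPM per kb in the SKOV3 pair and to 34.7 and 17.0 in the OVCAR3 pair. The BH3-only genes summed to 194 in both SKOV3 libraries and to 128 and 101 in the OVCAR3 pair. In the OVCAR3 KO all 3 sums were thus lower than in its mock, and in the SKOV3 KO the anti-apoptotic sum was the one that was lower.

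PMAIP1 made up 64.0% and 61.7% of the BH3-only sum in the SKOV3 mock and KO, and 42.9% and 43.1% in the OVCAR3 pair. The log2 of pro-apoptotic (effector plus BH3-only) over anti-apoptotic level was 0.81 in the SKOV3 mock, 1.03 in the SKOV3 KO, 0.05 in the OVCAR3 mock and 0.35 in the OVCAR3 KO. It was higher in the KO of both lines, by 0.22 ± 0.07 in SKOV3 and 0.30 ± 0.09 in OVCAR3 (half-width of a 95% counting interval). With the trend on GC content and length removed, the SKOV3 value was 0.19 and the OVCAR3 value was -0.020. The OVCAR3 increase was thus not seen at that setting, where the value was smaller in size than the half-width of 0.09.

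**Figure D4:**
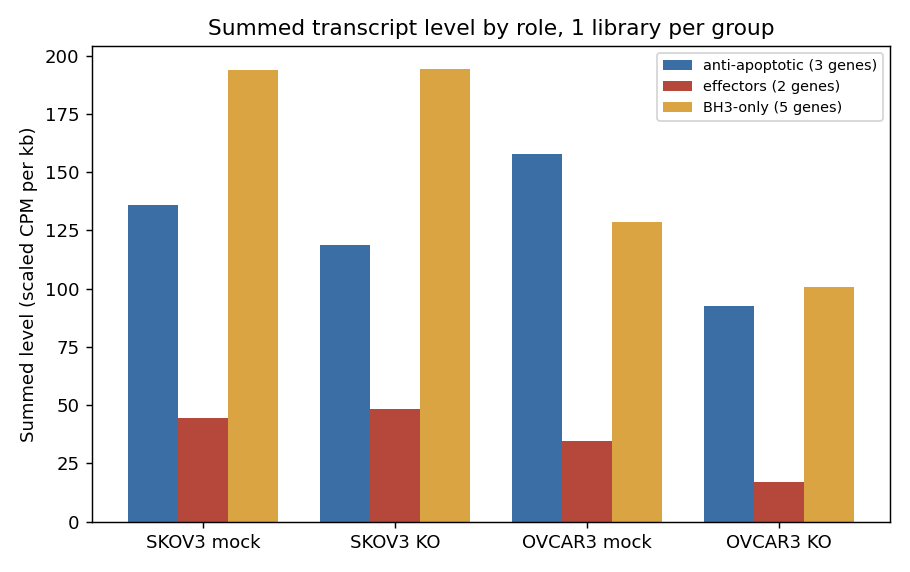
Summed scaled CPM per kb (y axis) of the anti-apoptotic, effector and BH3-only genes in each of the 4 libraries, 1 library per group and no error bars. The OVCAR3 KO has the lowest bar of each role, at 92.5, 17.0 and 101, and the BH3-only bars of both SKOV3 libraries are at 194.

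The wider family was read from a list of 13 other genes, of which 10 were measured. In SKOV3, 1 passed the 2-fold rule as higher and 0 as lower, beside 0.6% and 0.322% of measured protein-coding genes. The list's median was 0.07, and the gene past the rule was BCL2L15, at 13 counts in the mock and 22 in the KO. In OVCAR3, where 13.0% of measured protein-coding genes passed as higher and 18.3% as lower, 1 list gene passed as higher and 2 as lower. The list's median was -0.31, and the higher one was again BCL2L15, with 18 and 36 counts. The lower ones were BOK, an effector-like relative, at 34.3 CPM in the mock and 14.5 in the KO (-1.23), and BMF, a BH3-only gene, with 51 and 13 counts (-1.69). With the trend on GC content and length removed, BMF stayed past the rule, at -1.27. BOK at -0.74 and BCL2L15 at 0.85 did not. BIK, a BH3-only gene, was at -0.71 in OVCAR3, BCL2L13 at -0.68, the guardian BCL2L2 at -0.38, BCL2L12 at -0.24 and the BH3-only gene HRK at -0.09. The mitophagy receptors BNIP3 and BNIP3L were at 0.30 and -0.03 in OVCAR3, and at -0.30 and -0.46 in SKOV3. BCL2A1 was at 0 counts in all 4 libraries, and BCL2L10 and BCL2L14 had at most 1 count.

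Downstream of the family, all 24 genes of the caspase cascade and apoptosome were measured. None passed the rule in SKOV3, with a median of 0.11. In OVCAR3, 0 passed as higher and 3 as lower, with a median of -0.04, beside 13.0% and 18.3% of measured protein-coding genes. The 3 were HTRA2, a protease released from mitochondria (-1.61), PARP1, a DNA repair enzyme and caspase substrate (-1.36), and AIFM1, a mitochondrial flavoprotein (-1.13). With the trend on GC content and length removed, they were at -1.16, -1.19 and -1.06. Chosen after their values were seen, cytochrome c (CYCS) had an OVCAR3 ratio of 0.63 and APAF1 of 0.51, while the initiator CASP9, which joins APAF1 in the apoptosome, was at -0.97. With the trend on GC content and length removed those values of CYCS, APAF1 and CASP9 were 0.29, 0.23 and -0.65.

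Upstream, 19 of 20 regulators of BCL2 family transcription were measured. None passed the rule in SKOV3, with a median of 0.04. In OVCAR3, 0 passed as higher and 13 as lower, with a median of -1.53, beside 13.0% and 18.3% of measured protein-coding genes. TRIB3, a stress-induced pseudokinase, was at -3.13, ATF3 at -2.77 and JUN at -2.75. With the trend on GC content and length removed these OVCAR3 ratios were -2.66, -2.90 and -2.30. Chosen after its values were seen, DDIT3 (CHOP), an activator of BBC3 and BCL2L11, was at 48.3, 51.6, 160 and 29.4 CPM in the order above. Its OVCAR3 ratio was -2.44 [-2.60, -2.30], and -2.75 with the trend on GC content and length removed. In the same pair BBC3 was at -2.27 and BCL2L11 at -0.41. Whether the levels of these regulators bear on those of the members was not tested.

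The last list held 24 regulators of BCL2 family protein stability and activity. None passed in SKOV3, with a median of -0.08. In OVCAR3, 1 passed as higher and 6 as lower, with a median of -0.43, beside 13.0% and 18.3% of measured protein-coding genes. BAG3, a co-chaperone that stabilises anti-apoptotic members, was at -2.49, HUWE1, a ubiquitin ligase of MCL1, at -2.22, and PIM1, a kinase that phosphorylates BAD, at -1.85. With the trend on GC content and length removed, these OVCAR3 ratios were -2.11, -2.09 and -1.50. In the test over both lines, edgeR called 0 genes of any of these 4 lists.

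The genes whose profile over the 4 libraries was nearest to that of BBC3, among 11845 genes and by Euclidean distance of centred log2 CPM, were SLC25A22 (0.06), KRT7 (0.07) and AP1M1 (0.08). SLC25A22 was at 56.1, 59.4, 74.6 and 15.4 CPM, and so also had its highest level in the OVCAR3 mock and its lowest in the OVCAR3 KO. A likeness over 4 libraries is a description only.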

How the data were processed

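Total RNA of 4 cultures was sequenced. Per the labels' protocols, Trizol was used to take RNA, and the NEBNext Ultra II Directional kit to prepare it for sequencing. Per the submitters' processing notes, TopHat and GRCh38 were used. How reads were counted, with which annotation and which strand setting, is not given in the sources used here. Each deposited table has 58173 rows of raw counts by gene symbol, which the authors had not normalised. Rows of 1 symbol were summed (2687 symbols, no member among them). Groups came from the sample titles. Reads carry no molecular identifiers, so intervals cover counting error only. The spread behind the p-values comes from the disagreement of the lines in the ratio of KO over mock. It can hold differences between the lines as well as technical ones, and nothing says how cultures were kept apart.

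Library sizes were scaled with edgeR 4.0.16 in R 4.3.3 (trimmed mean of M values, TMM, over genes that reached a CPM of 1 in 2 libraries or more, giving factors of 1.02, 1.04, 1.01 and 0.931 for SKOV3 mock, SKOV3 KO, OVCAR3 mock and OVCAR3 KO). CPM here are scaled in this way. Ratio intervals are Clopper-Pearson intervals of the counts at 95% (SciPy 1.17.1), and those between lines come from the odds ratio of 4 counts. The edgeR fit over 4 libraries has 1 residual degree of freedom. DESeq2 1.42.0 and limma 3.58.1 (voom) were alternatives. Scripts were tested on simulated data. Gene positions are from RefSeq GRCh38.p14, and transcript length, GC content and exons from GENCODE 29. GC trends were spline fits with 5 degrees of freedom over protein-coding genes.

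The members and lists were chosen with earlier results of these data known. Named genes were all members, all other measured family genes, up to 3 genes per list, direction and line with the largest ratio past the rule and at least 100 counts in the pair, and the 3 genes nearest in profile to the member with the largest OVCAR3 ratio in absolute value. Alternatives were DESeq2 size factors, no scaling factor, TMM over all rows, prior counts of 0.5 and 5, folds of 1.5 and 3, other CPM minimums, the mitochondrial rows left out, the trend removed, other tests, the OVCAR3 KO library left out, and no block. Protein sequences were not used here, and some genes, 1 list and 1 motif are not reported here.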

Additional observations from a re-analysis of the deposited data

Results flagged for a closer look

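BBC3 drew attention because its log2 ratio of KO over mock differed between the lines, 0.15 [0.01, 0.30] in SKOV3 and -2.27 in OVCAR3. The difference, OVCAR3 minus SKOV3, was -2.42 [-2.72, -2.14], with an interval for counting error only. With the trend on GC content and length removed, the SKOV3 ratio was 0.005 and the OVCAR3 ratio -1.94. With 1 library per group, the difference was not tested over samples.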

How the results depend on the processing

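The OVCAR3 ratio of BBC3 stayed past 2-fold in each of 7 scaling, prior count and trend settings (-2.55 to -1.94), that of BAK1 in 6 of 7. BCL2 and BAD each changed sign in 1 of 7 in OVCAR3, BCL2 to -0.07 and BAD to 0.10. Members counted as lower in OVCAR3 were 4 with DESeq2 size factors, 4 with TMM over all rows and 4 with a 1.5-fold rule, and 1 with a 3-fold rule, against 2. Of protein-coding genes 23.7%, 25.9%, 29.7% and 7.25% were lower at these settings, against 18.3%. DESeq2 size factors moved the OVCAR3 median of protein-coding genes by -0.21, TMM over all rows by -0.29, no scaling factor by -0.11 and the trend removal by -0.11. A 1.5-fold rule counted 1 member as higher in SKOV3 and 1 in OVCAR3, against 0, beside 2.98% and 24.1% of protein-coding genes. The KO increase in log2 pro- over anti-apoptotic level was 0.30 in SKOV3 without PMAIP1 (0.22 with it). In OVCAR3 the increase was -0.020 with the trend on GC content and length removed (0.30 without). The cause was not tested.

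Genes called for the line were 5, against 184 with DESeq2, 226 with no filter, 61 with CPM of at least 5, and 0 with DESeq2 size factors, with TMM over all rows and without the mitochondrial rows. For the knockout, 1 gene was called with no filter, against 0. No setting called a member, and the lowest adjusted p of a member for the knockout was 0.924 over the edgeR, DESeq2 and limma settings. BBC3 reached an unadjusted p of 0.0276 with no filter. Each KO was paired with its mock through the line, as a block; replicate numbers could pair nothing more, since each group has 1 library. Without this block no gene was called. TMM over all rows, the removal of the trend from the role sums and the omission of PMAIP1 or of the OVCAR3 KO library were chosen after seeing the data.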
